A study of Saccharomyces cerevisiae with 18 samples.

Results

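Deletion of TAH1 was compared with wild type in budding yeast that carried a tag on Rvb2. The comparison covered 5820 of the 7126 features of the deposited table, those with a mean of at least 10 normalized counts over the 6 libraries compared. A normalized count is a read count per gene divided by a factor that the authors set for each library, rounded to a whole number. Of the 1306 features below that mean, 487 stood at 0 in all 6 libraries. Genes of chromosome XVI were taken as those with identifiers starting YPL or YPR, and 466 of 522 such genes were measured at this level. They are described apart from the other 5354, because as a chromosome they stood at a higher level in the deletion strain.

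The series measured RNA in 18 libraries of Saccharomyces cerevisiae strain By4741, a laboratory strain of mating type a, in 6 groups with 3 biological replicates each. Per the labels, either Rvb1 or Rvb2 was tagged, and each tag was combined with a wild type, a PIH1 deletion and a TAH1 deletion. The 6 libraries compared here were the Rvb2-tagged wild type and the Rvb2-tagged TAH1 deletion, both grown at 30 °C in YPD (rich medium with glucose) until the OD600 lay between 1.2 and 1.5, with RNA selected by oligo(dT). The kind of tag, the cassette that replaced TAH1 and how many independent isolates stand behind each strain were not stated in the labels. The source field of wild type replicate 1 names Rvb1 where its title names Rvb2, and the title was followed.

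Tah1 is the small subunit of R2TP, a complex that it forms with Pih1 and the paired AAA+ ATPases Rvb1 and Rvb2. R2TP hands client proteins to the chaperone HSP90, which Tah1 binds directly, and it is known for the assembly of box C/D snoRNPs, RNA polymerase II and the PIKK family of large kinases. Rvb1 and Rvb2 are also core subunits of the chromatin remodellers INO80 and SWR1. snoRNPs guide the modification and cutting of ribosomal RNA, so their assembly bears on the making of ribosomes.

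The normalized counts of the 6 libraries summed to 4956416 to 5283109. The root mean square log2 distance of a library to the others of its group was 0.193 to 0.310 in the wild type, highest in replicate 1, and 0.171 to 0.215 in the deletion. LEU2, URA3 and MET17, which are deleted in By4741, were at 0 in all 18 libraries. HIS3, also an auxotrophic marker of By4741, was not: it stood at 425 to 846 over the 18 libraries. It went from 448, 439 and 425 in the wild type to 530, 530 and 559 in the deletion, a log2 difference of 0.30. Limma called this rise, but not without deletion replicate 3 (adjusted p = 0.0521). Of the cell type markers, STE2, the alpha-factor receptor of a cells, stood at 4640 to 7417 over the 18 libraries. MF(ALPHA)1, the alpha-factor gene of alpha cells, stood at 0 to 11, and the alpha-cell marker STE3 at 1 to 36. SAG1, a further alpha-cell marker, was well above these at 256 to 492, with 256, 288 and 290 in the wild type and 334, 345 and 345 in the deletion. The summed level of alpha-cell markers was 343 to 357 in the wild type and 417 to 428 in the deletion, and that of meiosis and spore markers 1451 to 1648 and 1823 to 1876. The summed level of snRNA and snoRNA, which lack long poly(A) tails, was 1474 to 1884 in the wild type and 1951 to 2201 in the deletion. The part of these levels in the results below was not tested.

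TAH1 (YCR060W, chromosome III, 224399 to 224734) stood at 201, 176 and 177 in the wild type and at 0 in all 3 deletion libraries. Taking 3 normalized counts as the floor of the group mean, it was at least 61.6-fold lower. Its left neighbour YIH1, a regulator of the kinase Gcn2, went from 456, 420 and 408 to 369, 275 and 283, a log2 change of -0.48 ± 0.11 (SE, n = 3 per group; limma, adjusted p = 0.00132). The other neighbour, TVS1, overlapped between the groups at 223, 276 and 288 against 193, 240 and 215 (-0.28 ± 0.21, adjusted p = 0.299).

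The transcripts of the partner proteins went separate ways. PIH1, the partner that Tah1 stabilises, overlapped between the groups at 160, 136 and 125 against 156, 156 and 170, a log2 difference of 0.20 ± 0.31 (limma, adjusted p = 0.627). RVB1 rose from 762, 960 and 986 to 1702, 1608 and 1608 (0.87 ± 0.08, adjusted p = 1.68e-07). RVB2, the tagged gene, fell from 815, 952 and 880 to 513, 550 and 499 (-0.76 ± 0.07, adjusted p = 9.08e-08). For RVB1 and RVB2 every deletion library lay outside the range of the wild type. Such a lack of overlap held for 95.9% of the tested genes of chromosome XVI, most of them higher in the deletion, where RVB2 was lower. For genes outside that chromosome, RVB1 among them, no such share is given. RVB2 lies on chromosome XVI (103232 to 104647), whose genes stood in the median 0.97 above wild type on the log2 scale, so it was one of the few genes of that chromosome to move down. In the Rvb2-tagged PIH1 deletion, against the same wild type libraries, RVB1 stood at 0.88 and RVB2 at -1.50. In the Rvb1-tagged TAH1 deletion, against its own wild type, RVB1, the tagged gene there, stood at -0.96 and RVB2 at 0.04. The part of the tag in these changes was not tested.

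Outside chromosome XVI phosphate and iron uptake genes, the pump PDR5 and many ribosomal protein, glycolysis, TCA cycle and purine genes fell in the deletion, and ribosome assembly genes and several transporters rose. Of 5820 genes, 2595 (44.6%) passed limma's test at an adjusted p under 0.05. Outside chromosome XVI 963 of 5354 were higher (18%) and 1194 lower (22.3%), and 42 of them (0.784%) rose and 74 (1.38%) fell more than 2-fold. Quantile normalization turned this split to 759 higher and 1532 lower. The shares of 18% and 22.3% are the background for the counts in gene lists below. The p-values and SE rest on the spread within the 6 groups over all 18 libraries, so spread in strains not compared here enters them. Folds are on the log2(normalized count + 1) scale. As the RNA came from whole cultures, a change in every cell and a change in some of the cells cannot be told apart.

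The genes of chromosome XVI stood at about 2-fold the wild type level. Their median log2 difference was 0.97, which is 1.96-fold, against -0.01 for all other genes. In the single deletion libraries the median over these genes, set against the wild type mean, was 0.97, 0.97 and 0.98, and in the wild type libraries it lay between -0.01 and 0.01. Chromosome XVI held 12.02% to 12.06% of the counts of each deletion library and 6.19% to 6.38% of each wild type library. The grouping rests on this rise, so these values describe the strain, and the rise of the chromosome as a whole was not tested.

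The rise ran from end to end of the chromosome. The left arm had a median of 0.96 over 272 genes and the right arm 0.97 over 194, with interquartile ranges of 0.73 to 1.19 and 0.79 to 1.22. Cut into 10 windows of 100 kb, the chromosome showed medians of 0.92 to 1.05. No other of the 30 arms left the range of -0.20 to 0.10, the lowest being the right arm of chromosome VI. In the Rvb1-tagged TAH1 deletion, set against its own wild type, the same genes had a median of 0.01. In the Rvb2-tagged PIH1 deletion, which shares the wild type libraries used here, it was 0.05. The number of DNA copies was not measured in these libraries, and an extra copy in every cell and further copies in some cells cannot be told apart.

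**Figure D1:**
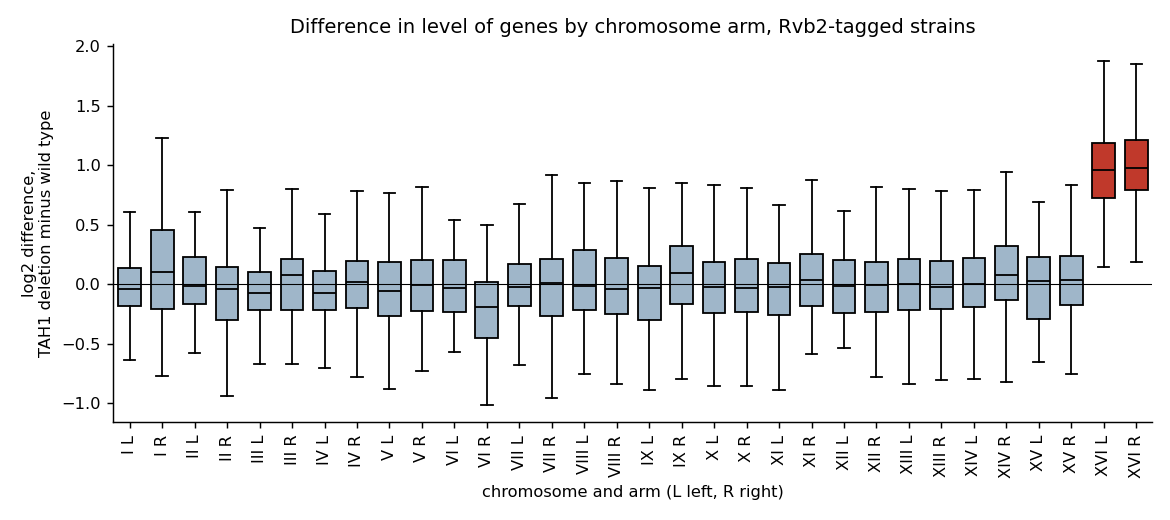
Log2 difference in gene level between the Rvb2-tagged TAH1 deletion and the Rvb2-tagged wild type (means of 3 libraries each) for every chromosome arm; boxes span the interquartile range of the genes, the line is the median, and whiskers reach the most extreme genes not set aside as outliers. Both arms of chromosome XVI (red) have medians near 0.97, and the 30 other arms have medians of -0.20 to 0.10.

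Around that common level the genes of chromosome XVI varied as much as genes elsewhere. The SD of their log2 differences was 0.441, against 0.421 for the other genes, and 395 of 466 (84.8%) lay within 0.5 of the chromosome's median. At the adjusted p of 0.05, 432 were higher (92.7%), 6 lower (1.29%) and 28 not called, 9 of these with a mean under 50. These counts restate the rise by which the chromosome was set apart. Most gene lists with 3 or more members on chromosome XVI stood there 0.905 to 1.07 above their members elsewhere, and amino acid synthesis genes 0.412 above. Small subunit processome genes had a median of 1.46 on the chromosome and 0.51 elsewhere, and large subunit assembly genes 1.46 and 0.54. Cytosolic ribosomal protein genes had 0.67 on the chromosome (11 genes) and -0.40 elsewhere (128 genes).

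A few genes stood far above the chromosome. TDA6 (YPR157W, 841266 to 842669) went from 108, 104 and 108 to 1130, 1139 and 1206, a log2 difference of 3.43 ± 0.09. For TDA6 all deletion libraries lay several-fold above all wild type libraries. GUP2 (2.63 ± 0.18), RRG8 (2.57 ± 0.47) and HOB2 (2.27 ± 0.06) were further large rises, and RRG8 and HOB2 are neighbours. RRG8 was low in the wild type, at 2, 14 and 18, and without wild type replicate 1 its difference was 1.73. In the whole, 39 genes lay more than 0.5 above the median and 32 more than 0.5 below it.

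Among other genes with large rises were TPO2, PDR12 and YRO2. TPO2 on chromosome VII, a polyamine exporter, rose from 382, 409 and 399 to 1716, 1400 and 1489 (1.94 ± 0.10, adjusted p = 4.83e-11). PDR12 on chromosome XVI, which exports weak organic acids, stood at 765, 909 and 979 in the wild type and 2698, 3305 and 3300 in the deletion (1.81 ± 0.11). YRO2 on chromosome II, a plasma membrane protein related to Hsp30, rose from 1018, 1103 and 1109 to 4341, 4209 and 4334 (2.00 ± 0.21, adjusted p = 6.54e-07). None of these 3 genes overlapped between the groups. The rule that named TPO2 and YRO2 required this, and it held for 95.9% of the tested genes of chromosome XVI, where PDR12 lies. TPO2 has relatives of like sequence, with which reads could have been shared.

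Only 8 of the 466 genes of chromosome XVI were below 0, and limma called 6 of them. VTC3, a subunit of the polymerase that makes vacuolar polyphosphate, fell most, from 1436, 1712 and 1682 to 645, 723 and 676 (-1.24 ± 0.08, adjusted p = 7.33e-10). CAR1, arginase, fell from 938, 852 and 830 to 390, 594 and 547 (-0.79 ± 0.16, adjusted p = 0.000546). RPL7B, a ribosomal protein gene whose intron holds the snoRNA gene SNR59, fell by 0.79 on the log2 scale (SE 0.13, adjusted p = 7.35e-05), and RVB2 is given above. In each of these genes the highest deletion library lay below the lowest wild type library, as the rule that named them required. SSU1, a sulfite pump (-0.33 ± 0.13, adjusted p = 0.0430), and CUP9, a repressor of peptide import (-0.15 ± 0.05, adjusted p = 0.0240), moved little. SSU1 missed the threshold without any single one of the 6 libraries (adjusted p 0.0715 to 0.0993), and CUP9 missed it without wild type replicate 1 (0.082) or deletion replicate 1 (0.0831) or 3 (0.0751). SSU1 also missed it when centred (0.0577) or with the FPKM table (0.052), and CUP9 when centred (0.0557), with the 6 libraries alone (0.0802) or with a replicate block (0.0508).

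Phosphate genes made the largest falls after TAH1. When phosphate is short, the factor Pho4 enters the nucleus and, with Pho2, turns on transporters, secreted phosphatases and polyphosphate synthesis; the kinase Pho85 with its cyclin Pho80 holds Pho4 out of the nucleus, and Pho81 inhibits that kinase. Pho4 binds DNA at cores spelled CACGTG or CACGTT. The stretches upstream of 4 of the genes that fell are shown because they hold such cores, in capitals on either strand, each read 5′ to 3′ on the coding strand from the RefSeq R64 genome, which is the sacCer3 build. They lie at chrVIII:375121-375260 for SPL2, chrXIII:26046-26245 for PHO84, chrII:431192-431321 for PHO5 and chrXVI:517284-517373 for VTC3, all on the minus strand.
SPL2: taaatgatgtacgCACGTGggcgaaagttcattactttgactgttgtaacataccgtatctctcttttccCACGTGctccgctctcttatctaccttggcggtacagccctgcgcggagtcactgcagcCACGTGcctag
PHO84: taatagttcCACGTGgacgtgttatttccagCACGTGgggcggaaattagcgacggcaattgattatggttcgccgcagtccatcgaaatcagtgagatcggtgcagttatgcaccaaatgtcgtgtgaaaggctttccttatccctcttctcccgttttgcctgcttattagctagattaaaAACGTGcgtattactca
PHO5: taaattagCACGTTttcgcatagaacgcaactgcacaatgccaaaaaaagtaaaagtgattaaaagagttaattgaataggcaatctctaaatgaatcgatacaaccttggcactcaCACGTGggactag
VTC3: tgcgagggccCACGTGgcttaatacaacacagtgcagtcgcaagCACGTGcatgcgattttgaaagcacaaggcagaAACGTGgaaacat

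A Pho4 core lay within 500 bases before the start codon in 14 of 18 phosphate genes (77.8%) and 7 of 11 polyphosphate genes (63.6%), against 21.2% of the 5561 protein-coding genes tested. CACGTG alone was present in 66.7% and 54.5%, against 6.24% of all. Both lists were written from general knowledge of the pathway, so these shares describe the lists and are no result. CACGTG is read by other factors too, Cbf1 among them, and a match is a description of the letters, not a site shown to be in use. The PHO84 stretch also lies inside the dubious gene YML122C and an antisense RNA (YNCM0001W) that spans PHO84. Whether reads were counted by strand was not stated, so reads of PHO84 and of this antisense RNA cannot be told apart.

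PHO84 encodes the high-affinity phosphate transporter of the plasma membrane (YML123C, XIII:24037-25800). It stood at 6169, 5596 and 6003 in the wild type and at 318, 325 and 312 in the deletion, 18.5-fold lower (-4.21 ± 0.11, adjusted p = 1.19e-14). SPL2, a small protein that holds back low-affinity phosphate uptake (YHR136C, chromosome VIII), went from 178, 168 and 137 to 10, 3 and 4 (-4.74 ± 0.32, adjusted p = 1.76e-09). PHO5, the main secreted acid phosphatase (YBR093C, chromosome II), went from 616, 523 and 559 to 177, 182 and 192 (-1.62 ± 0.17, adjusted p = 4.78e-07). Its relatives PHO12 (122, 98 and 102 against 30, 27 and 16) and PHO11 (38, 23 and 36 against 13, 10 and 7) fell too, PHO12 by 2.14 on the log2 scale (adjusted p = 7.28e-07) and PHO11 with an adjusted p of 0.000973. PHO5, PHO11 and PHO12 are alike in sequence and their reads could have been shared. The rule that named PHO84, SPL2 and PHO12 required groups without overlap, and PHO11 was low in both groups.

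The phosphate list held 17 tested genes outside chromosome XVI, of which 10 fell and 1 rose, with a median of -0.64 against -0.01 for all genes outside that chromosome. PHO8, the vacuolar alkaline phosphatase (-0.64 ± 0.06), PHO81, the kinase inhibitor (464, 460 and 479 against 302, 305 and 288; -0.65 ± 0.07), PHO86, which PHO84 needs to leave the endoplasmic reticulum (-0.44 ± 0.06), PHM6 (-0.82 ± 0.27) and the polyphosphatase DDP1 (-0.84 ± 0.09) were the others that fell. PHM8, a nucleotide phosphatase, rose by 0.67 ± 0.14. The low-affinity transporter PHO90 stood at 483, 509 and 521 against 603, 513 and 528 (adjusted p = 0.541). The sodium-linked transporter PHO89 was near the limit of measurement at 7 to 21 in all 6 libraries.

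Of the 10 polyphosphate genes outside chromosome XVI 5 fell and 2 rose. The subunits of the polyphosphate polymerase fell together: VTC4, its catalytic subunit, went from 2280, 2309 and 2321 to 863, 807 and 845 (-1.46 ± 0.06, adjusted p = 6.35e-12). VTC1 fell by 1.13 on the log2 scale, VTC2 by 0.57 and VTC5 by 0.69, and VTC3 on chromosome XVI by 1.24. The polyphosphatase PPN1 fell less (-0.37 ± 0.07). The vacuolar phosphate exporter PHO91 (0.38 ± 0.07) and the inositol pyrophosphate kinase KCS1 (0.31 ± 0.09) rose. The VTC3 stretch printed above lies in the 632 bases that part it from the divergent gene CTF19, a kinetochore gene, and both upstream windows hold the same 3 cores. CTF19, the only phosphate list member on chromosome XVI, stood higher in the deletion (120, 147 and 152 against 203, 190 and 198, 0.50 ± 0.13), below the median of its chromosome.

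The regulators of the pathway other than PHO81 were picked after their values were seen. PHO85 lies on chromosome XVI and stood at 602, 545 and 481 against 872, 903 and 955 (0.75 ± 0.09). PHO80 overlapped between the groups at 224, 216 and 170 against 153, 194 and 192 (-0.18 ± 0.11, adjusted p = 0.219). Without wild type replicate 3 it stood at -0.30 and passed (adjusted p = 0.0382), as it did with library weights (0.0216). PHO4 went from 471, 533 and 529 to 438, 407 and 417 (-0.28 ± 0.09, adjusted p = 0.0157). It no longer passed when wild type replicate 2 (adjusted p = 0.0605), wild type replicate 3 (0.0516) or deletion replicate 2 (0.0545) was left out. PHO2, the partner of Pho4, stood at 295, 274 and 356 against 249, 273 and 246 (-0.26 ± 0.08, adjusted p = 0.0178). Its call was lost with the 6 libraries alone (0.0644), with library weights (0.0862) and without wild type replicate 3 (0.109), deletion replicate 1 (0.06) or deletion replicate 3 (0.0642).

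The phosphate genes moved in opposite directions in the 2 tagged backgrounds. In the Rvb1-tagged TAH1 deletion 10 of the 17 rose and none fell (median 0.54), where 6.24% of all genes outside chromosome XVI rose and 4.71% fell. The difference of the TAH1 effect between the backgrounds, Rvb2-tagged minus Rvb1-tagged, was tested in limma and passed for 1429 genes (24.6%), 1012 of them outside chromosome XVI (18.9%). It was -5.67 ± 0.16 for PHO84, -6.00 ± 0.45 for SPL2, -2.73 ± 0.24 for PHO5 and -2.28 ± 0.08 for VTC4 (adjusted p = 8.23e-14, 2.43e-08, 1.41e-07 and 3.70e-12). In the Rvb1-tagged wild type, replicate 2 was the farthest from its group, at a root mean square distance of 0.404; without it the differences of PHO84 and SPL2 were -5.87 and -6.06. In the Rvb2-tagged PIH1 deletion, which shares its wild type libraries with the TAH1 deletion, PHO84 stood at -3.77, SPL2 at -3.29 and VTC4 at -1.31. In that strain 3 phosphate genes rose and 11 fell, where 34.6% of all genes outside chromosome XVI rose and 34.6% fell.

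**Figure D2:**
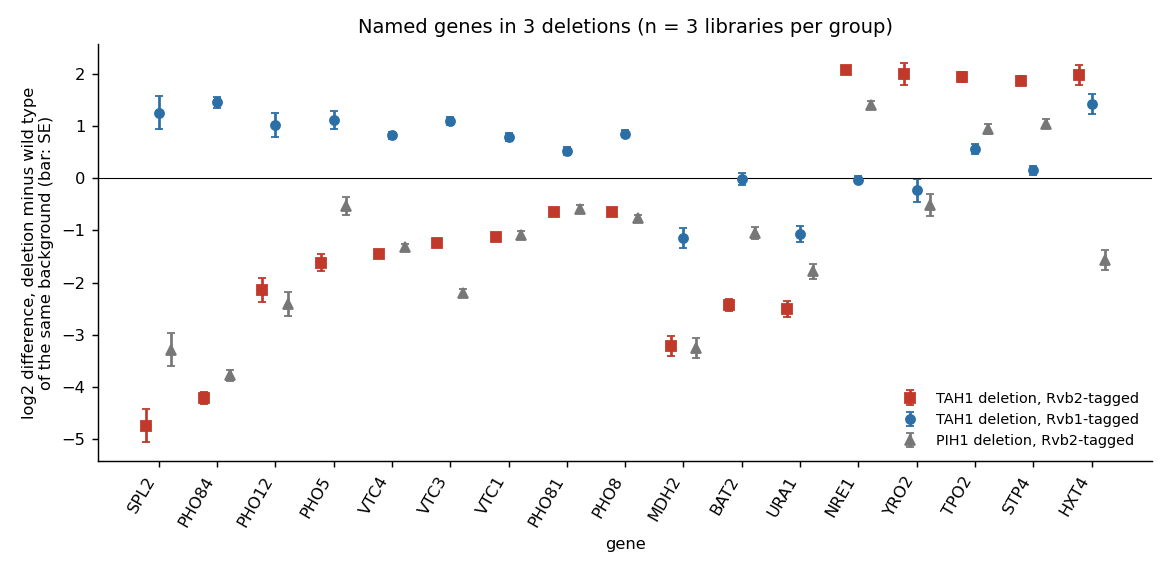
Log2 difference from the wild type of the same background (y axis, bars SE, n = 3 libraries per group) for named genes in the Rvb2-tagged TAH1 deletion (squares), the Rvb1-tagged TAH1 deletion (circles) and the Rvb2-tagged PIH1 deletion (triangles); both Rvb2-tagged deletions use the same wild type libraries. From SPL2 to PHO8 the circles lie above 0 and the squares and triangles below it, and PHO84 stands at -4.21, 1.46 and -3.77.

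Transcripts of several iron uptake genes fell in both TAH1 deletions. Fit2 and Fit3 are cell wall proteins that hold iron bound to siderophores, which the transporters Sit1, Enb1, Arn1 and Arn2 then take in; all are known targets of Aft1, whose core is TGCACCC. A stretch upstream of FIT2 (chrXV:1059191-1059291, plus strand) is shown with the cores, on either strand, in capitals, because FIT2 fell most in this group.
FIT2: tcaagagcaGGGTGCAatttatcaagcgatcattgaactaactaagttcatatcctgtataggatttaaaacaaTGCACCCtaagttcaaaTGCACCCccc
Such a core lay within 500 bases of the start codon in 12 of 12 siderophore genes and in 2.36% of all protein-coding genes tested. With known Aft1 targets in the list by choice, this share describes the list and is no result. FIT2 went from 779, 624 and 651 to 206, 181 and 164 (-1.89 ± 0.16, adjusted p = 3.07e-08), FIT3 by -1.15 ± 0.08, SIT1 by -1.01 ± 0.11, ENB1 by -0.65 ± 0.10, ARN2 by -0.62 ± 0.10 and ARN1 by -0.48 ± 0.08. In all, 6 of 12 fell and none rose, with a median of -0.44, while the 5 reductases FRE2 to FRE6 and FIT1 did not pass. Of 19 genes of reductive uptake and iron sparing 8 fell and 1 rose. TIS11, which destabilises mRNA in iron shortage, fell by 1.01 on the log2 scale and the reductase FRE1 by 0.92. In the Rvb1-tagged TAH1 deletion 8 of the 12 siderophore genes fell. There FIT2 stood at -2.08 and FIT3 at -2.04, and the difference between backgrounds was 0.19 ± 0.22 for FIT2 (adjusted p = 0.616) and 0.89 ± 0.12 for FIT3 (adjusted p = 1.55e-05). In the Rvb2-tagged PIH1 deletion, against the same wild type libraries as here, FIT2 stood at -1.51, FIT3 at -1.13, ENB1 at -0.73 and SIT1 at 0.07. In that strain 5 of the 12 siderophore genes rose and 3 fell, where 34.6% of all genes outside chromosome XVI rose and 34.6% fell.

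The drug pump PDR5, an ABC transporter of the plasma membrane, was among the most abundant genes to fall. Its transcription is driven by Pdr1 and Pdr3 through the element TCCGNGGA, where N is any base, shown in capitals on either strand in a stretch upstream of the gene (chrXV:619340-619539, plus strand).
PDR5: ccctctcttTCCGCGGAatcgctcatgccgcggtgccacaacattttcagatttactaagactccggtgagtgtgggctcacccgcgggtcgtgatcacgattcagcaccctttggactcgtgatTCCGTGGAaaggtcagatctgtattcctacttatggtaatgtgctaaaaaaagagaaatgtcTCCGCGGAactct
The element was present upstream of 10 of 16 genes in a list of drug efflux genes and Pdr1 targets (62.5%), and of 2.91% of all. Because Pdr1 targets were put in the list by choice, its share of the element describes the list and is no result. PDR5 (YOR153W, chromosome XV) went from 9509, 11762 and 12253 to 3383, 3283 and 3233 (-1.75 ± 0.08, adjusted p = 1.32e-11). Of the 15 tested genes of that list outside chromosome XVI 9 fell and 1 rose, with a median of -0.37. PDR15, the closest relative of PDR5, fell by 1.14 on the log2 scale, RSB1 by 0.65, YOR1 by 0.49, SNQ2 by 0.48 and the lipid transfer protein PDR16 by 0.47. PDR1 itself fell by 0.30 (458, 463 and 465 against 389, 368 and 371), and FLR1 rose by 0.31 ± 0.08. In the Rvb1-tagged TAH1 deletion PDR5 stood at -2.05, a difference between backgrounds of 0.29 ± 0.11 (adjusted p = 0.0559).

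Ribosome genes split by function. Outside chromosome XVI 104 of 128 cytosolic ribosomal protein genes fell and none rose, with a median of -0.40, while 29 of 34 small subunit processome genes and 41 of 47 large subunit assembly genes rose and none fell, with medians of 0.51 and 0.54. The ribosomal protein list was added after its pattern had been seen in these data. The background for a rise was 18% and for a fall 22.3%. The fall of the ribosomal proteins kept 91 to 115 calls under every alternative run, medians of -0.47 to -0.31. Without deletion replicate 1, 16 of the processome genes and 15 of the large subunit genes passed, with medians of 0.41 and 0.44, where 678 of the 5354 genes outside chromosome XVI were higher.

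Promoters of assembly factors in yeast are known for the elements PAC, GATGAG, and RRPE, AAAATTTT. A stretch for a gene off the chromosome, REA1 (chrXII:363929-364018, minus strand), and for a gene on it, NOC4 (chrXVI:821479-821548, minus strand), shows them in capitals on either strand.
REA1: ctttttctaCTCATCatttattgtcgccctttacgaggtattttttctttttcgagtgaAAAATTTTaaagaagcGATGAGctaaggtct
NOC4: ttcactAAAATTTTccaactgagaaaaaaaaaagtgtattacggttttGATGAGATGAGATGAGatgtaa
PAC was present upstream of 92.1% of the processome genes and 94.0% of the large subunit genes, against 28.1% of all, and RRPE of 78.9% and 78.0%, against 12.9%. As the elements are known from such genes, these shares too describe the lists and are no result. REA1, the dynein-like ATPase that strips factors from the large subunit precursor, rose from 716, 624 and 568 to 1433, 1256 and 1221 (1.04 ± 0.15, adjusted p = 1.97e-05). NOC4, of the small subunit, stood at 493, 450 and 441 against 1615, 1399 and 1407 (1.67 ± 0.14), and UTP20 of the processome rose by 0.92 ± 0.19. Other assembly genes of chromosome XVI stood at 1.61 (NAN1), 1.57 (NOP4), 1.46 (the GTPase NOG1) and 1.34 (TIF6). RPA135, the second largest subunit of RNA polymerase I, also on that chromosome, stood at 1664, 1853 and 1895 against 7291, 6308 and 6230 (1.87 ± 0.17). In each of these genes deletion replicate 1 was the highest library or level with it.

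Among the ribosomal proteins some paralogs moved apart. RPL8A went from 5738, 4859 and 4954 to 1826, 1804 and 1825 (-1.51 ± 0.09, adjusted p = 5.00e-10). Its paralog RPL8B went from 6945, 5342 and 5420 to 4702, 4442 and 4507 (-0.36 ± 0.10, adjusted p = 0.00679), or -0.24 without wild type replicate 1. RPL22B (-1.22 ± 0.09) and RPL9B (-1.04 ± 0.06) were the other large falls. RPL5, on chromosome XVI, stood at 24413, 18560 and 19183 against 40489, 38651 and 38613 (0.93 ± 0.09). Such pairs are close in sequence and how their reads were shared was not stated. In the Rvb1-tagged TAH1 deletion no ribosomal protein gene of the 128 was called (median 0.05), nor any processome gene of the 34 (median 0.41), while 4 of the 47 large subunit assembly genes rose (median 0.42).

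**Figure D3:**
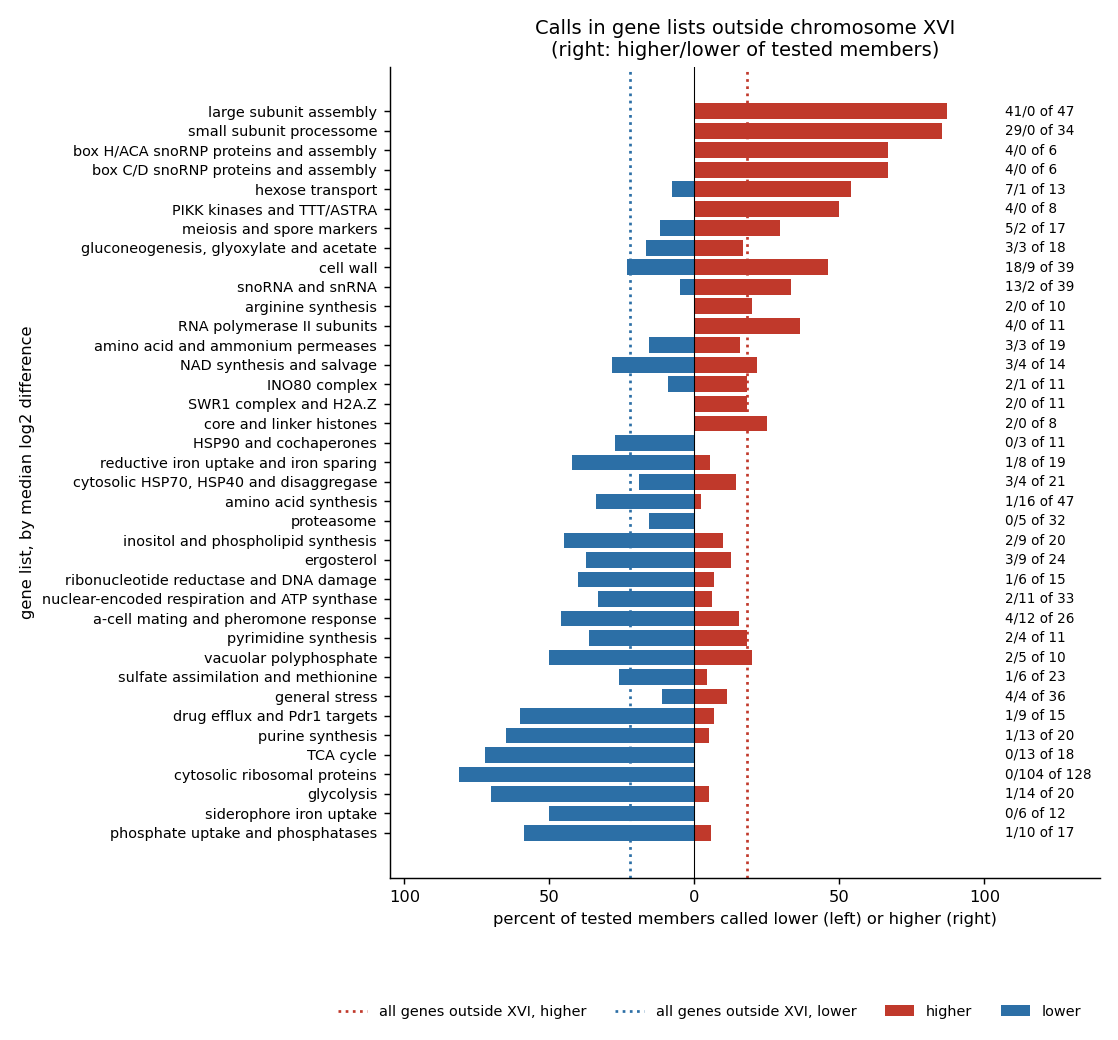
Share of tested list members outside chromosome XVI called lower (blue, left) or higher (red, right) in the Rvb2-tagged TAH1 deletion, with the counts at the right; dotted lines mark the shares over all 5354 genes outside that chromosome, 22.3% lower and 18% higher. Large subunit assembly (41 of 47 higher) and ribosomal protein genes (104 of 128 lower) lie far from these lines, as do small subunit processome genes (29 of 34 higher). The snRNA and snoRNA list is counted whole, with SNR17B of chromosome XVI in it, as its identifiers do not give the chromosome.

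R2TP clients and their partners came next. Of 6 genes of box C/D snoRNPs outside chromosome XVI 4 rose, NOP1, the methyltransferase, from 3248, 3363 and 3256 to 4924, 4368 and 4451 (0.48 ± 0.12, adjusted p = 0.00326) and the assembly factor BCD1 by 0.57 ± 0.15. RSA1, which links R2TP to these particles and lies on chromosome XVI, stood at 1.30 ± 0.14. Of 6 box H/ACA genes 4 rose too, NOP10 by 0.51 ± 0.11. Both counts dropped to 2 without deletion replicate 1, without wild type replicate 2 or without wild type replicate 3, and the box C/D count also without wild type replicate 1 or deletion replicate 3. Of 11 INO80 genes 2 rose and 1 fell, and of 11 SWR1 genes 2 rose, the ATPase SWR1 itself by 0.41 ± 0.07; 2 of 11 is near the background of 18%. Over the alternatives 0 to 4 genes of each of these lists fell, and 2 to 4 and 2 to 5 rose.

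Of 8 genes of PIKK kinases and their TTT and ASTRA partners 4 rose. TRA1, the PIKK-family subunit of histone acetyltransferases, rose from 476, 505 and 418 to 820, 877 and 854 (0.87 ± 0.08, adjusted p = 1.22e-07). TOR1 rose by 0.37 ± 0.08 and TOR2 by 0.32 ± 0.09. Of 11 RNA polymerase II subunits 4 rose, RPO21, the largest, by 0.39 ± 0.06; quantile normalization left 2 and library weights gave 7. Among 11 HSP90 and cochaperone genes 3 fell, CDC37 by 0.44 and SBA1 by 0.35 on the log2 scale. A count of 3 of 11 is near the 22.3% of all genes outside chromosome XVI that fell. HSC82, which makes most of the HSP90 in growing cells, stood at 15219, 15101 and 15278 against 15196, 14204 and 14258 (-0.06 ± 0.10, adjusted p = 0.617). HSP82, its stress-induced paralog on chromosome XVI, stood at 3406, 3476 and 3600 against 5509, 5788 and 6040 (0.73 ± 0.36, adjusted p = 0.114). It passed with the 6 libraries alone (adjusted p = 3.56e-06), with library weights (3.12e-06) and without replicate 2 of the Rvb1-tagged wild type (1.4e-07).

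Sugar metabolism shifted towards lower glycolysis and TCA cycle transcripts. Of 20 glycolysis genes 14 fell and 1 rose (median -0.41), and of 18 TCA cycle genes 13 fell and none rose (median -0.39). HXK2, the main hexokinase on glucose, went from 10481, 9122 and 9493 to 5240, 5419 and 5573 (-0.84 ± 0.07, adjusted p = 2.37e-08), and the enolase ENO2 fell by 0.52 on the log2 scale. IDH1 and IDH2, the subunits of mitochondrial isocitrate dehydrogenase, fell by 1.06 and 0.90. FUM1, fumarase, lies on chromosome XVI and stood 0.90 ± 0.05 higher.

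MDH2, the cytosolic malate dehydrogenase of gluconeogenesis, fell most among carbon genes, from 1381, 1272 and 1287 to 117, 157 and 152 (-3.21 ± 0.20, adjusted p = 5.66e-10). The other 17 tested gluconeogenic, glyoxylate and acetate genes outside chromosome XVI held 3 rises and 2 falls, and the rises of the list ran from 1 to 10 over the alternatives. TDH1, a minor glyceraldehyde-3-phosphate dehydrogenase, went from 5905, 5459 and 5436 to 310, 1831 and 1938 (-2.44 ± 0.86, adjusted p = 0.0288). Deletion replicate 1 lay far below the other replicates, and the call ended without it (adjusted p = 0.168) and without any of the wild type libraries (0.0587 to 0.0674). TDH1 also shares sequence with TDH2 and TDH3.

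Of 13 hexose transport genes 7 rose and 1 fell, or 4 without wild type replicate 1 or without deletion replicate 2. The high-affinity transporter HXT4 rose from 858, 893 and 939 to 2790, 3987 and 3923 (1.97 ± 0.19, adjusted p = 1.61e-07), and HXT1, the low-affinity carrier of high glucose, from 1125, 1258 and 1369 to 3260, 2583 and 2672 (1.18 ± 0.19). HXT2 fell from 793, 746 and 740 to 416, 436 and 396 (-0.87 ± 0.20). The transporters thus moved in opposite directions.

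Single genes of amino acid and nucleotide metabolism fell far. BAT2, the cytosolic branched-chain aminotransferase, went from 2167, 2146 and 1995 to 322, 435 and 415 (-2.44 ± 0.12, adjusted p = 3.16e-11). Of 47 amino acid synthesis genes 16 fell and 1 rose, LYS9 by -0.92 ± 0.07 and SER1 by -0.51 ± 0.07, with a median of -0.08. Over the alternatives the falls numbered 11 to 21 and the rises 1 to 11. In the Rvb1-tagged TAH1 deletion 32 of the same 47 rose and none fell. CAR2, of arginine breakdown, fell from 531, 448 and 439 to 98, 149 and 148 (-1.86 ± 0.24), as did CAR1 of the same pathway. PTR2, the importer of small peptides, fell from 745, 632 and 625 to 177, 234 and 222 (-1.66 ± 0.11, adjusted p = 2.38e-09).

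URA1, dihydroorotate dehydrogenase of pyrimidine synthesis, went from 4556, 4253 and 4141 to 853, 715 and 718 (-2.50 ± 0.15, adjusted p = 3.36e-10). URA4, of the same pathway, fell from 1510, 1221 and 1181 to 539, 502 and 476 (-1.36 ± 0.11). The 11 pyrimidine genes held 4 falls and 2 rises. Purine synthesis moved more evenly, with 13 of 20 lower and 1 higher (median -0.38). IMD2, an IMP dehydrogenase of guanine nucleotide synthesis, fell by 1.43 on the log2 scale, ADE13 by 0.64 and ADE3 by 0.48. RIB4, of riboflavin synthesis, fell by 1.80.

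**Figure D4:**
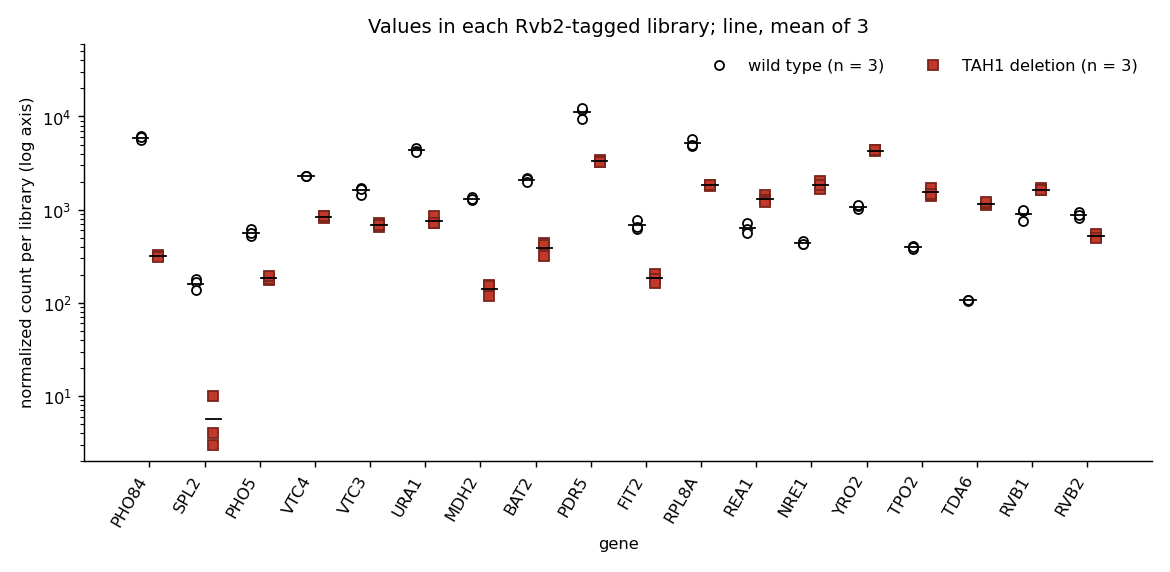
Normalized count (log axis) in each Rvb2-tagged library for named genes, circles for the 3 wild type and squares for the 3 TAH1 deletion libraries, lines for the means. For every gene shown the symbols of the groups do not overlap. The rule required this of the largest rises and falls, but not of PHO5, VTC4, PDR5, RPL8A, REA1 and RVB1. As no share over all genes stands beside it, the lack of overlap only describes the genes chosen for display. SPL2 lies at 3 to 10 in the deletion and 137 to 178 in the wild type, and TDA6, on chromosome XVI, at 1130 to 1206 and 104 to 108.

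Further large rises outside chromosome XVI were of mixed kinds. NRE1, a short-chain dehydrogenase relative, rose from 427, 456 and 431 to 2029, 1675 and 1851 (2.07 ± 0.07, adjusted p = 1.04e-12). STP4, a zinc finger protein, rose from 307, 302 and 292 to 1157, 1063 and 1088 (1.87 ± 0.09, adjusted p = 2.77e-11). The heat shock gene HSP12 rose from 430, 632 and 473 to 1767, 1938 and 1909 (1.89 ± 0.49, adjusted p = 0.00468), while the general stress list as a whole held 4 rises and 4 falls among 36. A fit of the 6 libraries alone gave 19 falls in that list, library weights 9 rises and 17 falls, and the fit without replicate 2 of the Rvb1-tagged wild type 15 falls. DIT2, of spore wall synthesis, rose from 8, 10 and 14 to 43, 54 and 39 (2.01 ± 0.26). The U3 snoRNA genes SNR17A (17, 9 and 4 against 59, 47 and 49) and SNR17B (14, 5 and 9 against 55, 35 and 33) rose by 2.44 and 2.08. They are nearly identical, SNR17A overlaps IRC13, SNR17B lies on chromosome XVI although its identifier does not say so, and such RNA is largely lost in oligo(dT) selection.

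Mating and membrane genes held further falls. Of 26 a-cell mating and pheromone genes 12 fell and 4 rose, AGA1, the anchor of the a-agglutinin, from 1417, 1328 and 1480 to 613, 545 and 587 (-1.27 ± 0.08, adjusted p = 6.62e-10) and BAR1, the protease that cuts alpha-factor, by -0.89 ± 0.07. FIG1, of cell fusion, went from 34, 29 and 27 to 7, 2 and 7 (-2.42 ± 0.51). STE2 stood at 4959, 5238 and 5485 against 5221, 5049 and 5206 (-0.02 ± 0.06). Of 20 genes of phospholipid synthesis 9 fell and 2 rose, and the falls included the methyltransferases of phosphatidylcholine synthesis, CHO2 (1981, 1774 and 1735 against 719, 809 and 819; -1.22 ± 0.08) and OPI3 (-1.41 ± 0.13). Of 39 cell wall genes 18 rose and 9 fell, PIR3 by 1.14 ± 0.14 and TIR1 by -1.79 ± 0.14.

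Energy, folding and turnover genes moved less. Of 33 nuclear genes of respiration and ATP synthase 11 fell and 2 rose, with 20 falls under library weights and 17 without replicate 2 of the Rvb1-tagged wild type. Among folding genes outside the HSP90 list 4 of 21 fell and 3 rose; HSP60, the mitochondrial chaperonin, went from 6210, 6238 and 6170 to 3058, 3246 and 3358 (-0.95 ± 0.10), and 7 or 8 fell with the 6 libraries alone, with library weights or without that replicate. Of 32 proteasome genes 5 fell and none rose, a count that ran from 2 to 15 over the alternatives, lowest without deletion replicate 2 and highest with quantile normalization. Of 15 ribonucleotide reductase and DNA damage genes 6 fell and 1 rose, and of 8 histone genes 2 rose. Over all genes outside chromosome XVI 18% rose and 22.3% fell, and the folding and histone counts lie near these shares.

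Of 24 ergosterol genes 9 fell (15 with library weights) and 3 rose, HMG1, an HMG-CoA reductase, by 0.63. Of 23 sulfate and methionine genes 6 fell and 1 rose, SAM2, an S-adenosylmethionine synthetase, from 833, 963 and 1032 to 427, 457 and 421 (-1.11 ± 0.17). Only 3 of these falls passed without wild type replicate 2 or 3 or without deletion replicate 1 or 3. Of 10 arginine synthesis genes 2 rose, of 14 genes of NAD synthesis 3 rose and 4 fell, and of 19 amino acid and ammonium permeases 3 rose and 3 fell. Over the alternatives these rises ran from 0 to 4, 1 to 6 and 3 to 8. They lie near the 18% of all genes outside chromosome XVI that rose, and the NAD and permease falls near the 22.3% that fell. Of 17 meiosis and spore markers 5 rose and 2 fell, and of 39 snRNA and snoRNA genes 13 rose and 2 fell. Their rises numbered 1 to 9 and 6 to 18 over the alternatives, with 6 snRNA and snoRNA rises at a mean of at least 50. Identifiers of snRNA and snoRNA genes do not give the chromosome. SNR17B and any others on chromosome XVI are therefore counted here with the genes outside it.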

How the data were processed

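Poly(A)-enriched RNA of 18 libraries was sequenced. The submitters' processing notes name TopHat2 (2.0.3), DESeq2 (1.6.3) and, as the genome, sacCer3; counter, annotation and strand setting were not stated. The deposited normalized counts (unit: signal) are the authors' read counts for each gene, scaled by library and rounded. The FPKM table that the authors deposited, also rounded (unit: score), served as an alternative. Whole reads could not be recovered, so sequencing depth is unknown and no count test was run.

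Log2(normalized count + 1) of the 5820 genes was fitted in limma 3.58.1 (R 4.3.3), with 1 mean for each of 6 groups over all 18 libraries and an intensity trend. Two-sided tests were adjusted by Benjamini-Hochberg over all genes, with a threshold of 0.05, and were checked on simulated data. Errors are SE of the fit, n = 3 libraries per group. Identifiers matched the R64 annotation by locus tag (6048) or symbol (114); 964 did not, 199 of them tested.

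By rule, the genes to name were the R2TP genes, the neighbours of TAH1 and up to 4 genes of each list. Outside chromosome XVI the rule also took the 15 largest rises and 15 largest falls, and on it 5 rises and up to 10 falls. These largest rises and falls needed groups without overlap and a mean of at least 30 in the higher group. Not all genes so picked are described. Among those left out were the rises outside chromosome XVI of BSC1 (2.22), YER053C-A (1.80), YBL005W-B (1.68), YER187W (1.63), PRM7 (1.59) and ECM13 (1.58). So were the falls there of TMA10 (-2.29), CIS1 (-2.01) and NFG1 (-1.92), and 1 gene among the largest rises on chromosome XVI. Other genes, such as PHO90, were picked after their values were seen. The members and the 42 gene lists were chosen with earlier results of these data known. Alternatives were pseudocounts, filters, scalings (trimmed mean of M values, TMM; quantile; centring), library weights, the 6 libraries alone, a replicate block, the FPKM table and each library left out; the fit without replicate 2 of the Rvb1-tagged wild type was chosen after seeing the data.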

Additional observations from a re-analysis of the deposited data

Results flagged for a closer look

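Of 23 genes asked, 16 differed in the TAH1 deletion effect between the tagged backgrounds by limma's test of the difference, Rvb2-tagged minus Rvb1-tagged on the log2 scale. Over all genes 24.6% passed that test, and 18.9% outside chromosome XVI. Most of the genes asked were the largest changes with tagged Rvb2, a choice that favours a difference, so the count of 16 is no measure of how often the backgrounds differ. Among the R2TP genes the difference was -1.8 for TAH1 (adjusted p = 3.32e-06), which stood at 0 in all Rvb2-tagged deletion libraries and at 2 to 3 in the Rvb1-tagged ones, so that this value depends on the pseudocount. It was 1.83 for RVB1 (adjusted p = 6.58e-09) and -0.802 for RVB2 (adjusted p = 6.41e-06).

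Phosphate genes differed most, SPL2 by -6.0 (adjusted p = 2.43e-08), PHO84 by -5.67 (adjusted p = 8.23e-14) and PHO12 by -3.15 (adjusted p = 9.84e-07). Each fell with tagged Rvb2 and rose with tagged Rvb1. BAT2 differed by -2.43 (adjusted p = 8.21e-09) and FIG1 by -2.41 (adjusted p = 0.0193), both at about 0 with tagged Rvb1. MDH2, by -2.07 (adjusted p = 1.83e-05), and URA1, by -1.44 (adjusted p = 3.65e-05), fell in both backgrounds and further with tagged Rvb2.

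Among the rises NRE1 differed by 2.1 (adjusted p = 2.22e-10), YRO2 by 2.23 (adjusted p = 2e-05), DIT2 by 2.23 (adjusted p = 0.000196), STP4 by 1.72 (adjusted p = 1.33e-08), TPO2 by 1.38 (adjusted p = 5.34e-07) and SNR17B by 1.25 (adjusted p = 0.0244). These differences use the Rvb1-tagged wild type, whose replicate 2 stood apart. Without it all 16 passed, the least of them SNR17B (1.11, adjusted p = 0.0428) and FIG1 (-2.32, adjusted p = 0.0269).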

How the results depend on the processing

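Counts rest on the estimate of spread: library weights gave 1586 higher and 1801 lower genes outside chromosome XVI and 2518 genes that differ between backgrounds. Leaving out 1 of the 6 libraries gave 678 to 886 higher and 999 to 1123 lower outside the chromosome, and 425 to 429 higher on it.

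The median of chromosome XVI was 0.95 with a pseudocount of 5, 0.96 with TMM scaling, 0.94 with quantile normalization, 0.99 when centred on the other genes, 0.96 with library weights and 0.95 with the FPKM table. It was 0.96 to 0.99 with 1 library left out. Without replicate 2 of the Rvb1-tagged wild type 1757 genes differed between backgrounds.

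Replicate numbers were not taken as pairs in the main fit. Same-numbered deviations from the group means correlated at 0.169, 0.0854 and 0.0767. With 3 libraries per group such values cannot decide whether the numbers pair the libraries. Wild type 1 and 2 correlated best with their own number, wild type 3 with deletion 2 (0.109), and the other differently numbered pairs lay between -0.15 and 0.02. A replicate block gave 887 higher and 1153 lower outside the chromosome. Of 3517 values of 196 named genes under the alternatives, 71 in 16 genes lost the call, 6 gained it and none reversed. Reads carry no depth here, so genes near 10 normalized counts are the least precise.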
